A study of Mus musculus with 15 samples.

Results

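Interferon response genes were followed across the epithelium of the adult mouse small intestine. They are a list of 40 genes that interferon is known to switch on or that act in its signalling, each taken from the array row carrying its symbol alone (the row with the highest mean where there were several). Of the 40 genes, 35 had such a row among 19938 genes with one, and 32 passed a filter on low signal among 11784 genes that did. Ifit2, Mx1 and Cxcl10 had a row but did not pass. Isg15, Oas1g, Gbp2 and Igtp are listed only on rows shared with other genes and Ifi44 is unlisted in the annotation used, so these 5 have no value here. The 15 arrays fall into 5 groups of 3. The group labelled Gata4 cKO jejunum comes from conditional knockout mice, and wild-type jejunum from CD1 mice. The group labelled Gata4 cKI ileum comes from conditional knock-in mice, control ileum from mice labelled only as controls, and wild-type ileum from CD1 mice. GATA4 is a transcription factor normally made in the proximal small bowel. The strain of the cKO, cKI and control mice and the Cre that drives recombination are not given in the sources used here. No jejunal control is named for the cKO mice, so in the comparison of cKO with wild-type jejunum, genotype and mouse line cannot be told apart, and the same holds for line in the comparison of control with wild-type ileum. Separate animals are not stated for the arrays within a group, and the p-values below reflect only the spread among these samples, which may be technical.

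Interferons are secreted proteins that warn cells of infection. Type I (alpha and beta) and type III (lambda) interferons act through their receptors and JAK kinases on a complex that includes STAT2 and IRF9, binds the interferon-stimulated response element (ISRE) and turns on antiviral genes. Type II interferon (gamma) acts on the gamma-activated site (GAS) and is known for raising antigen processing genes. In the gut epithelium type III interferon is the main antiviral interferon, and many of these genes are also expressed at rest.

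Promoter sequences were available from RefSeq (GRCm38.p6, 250 bases before to 50 bases after each start) for 31 of the 40 genes, in 37 windows. They show how the genes described below differ in the letters near their starts. The ISRE core, searched as GAAA, any 2 bases and GAAA on both strands, was present in 19 of the 37 windows (51.4%), against 3.44% of all 32851 windows. The GAS core, searched as TTCNNNGAA, which reads the same on both strands, was present in 8 of 37 windows (21.6%), against 8.3% of all windows. The GATA core, searched as GATAA on both strands after the values had been seen, was present in 24.3% of the windows, against 25.4% of all windows. An ISRE core overlapped a GAS core in Bst2 alone. None of the 3 windows of antigen processing genes held an ISRE core, whereas 19 of the other 34 windows did. Those 3 belong to Psmb8, Psmb9 and Tap1, the last 2 of which overlap, and Tap2 had no window. Irf7, Irf9, Oasl1, Oasl2, Xaf1 and Ifi35 held no ISRE core either, so lacking it does not set antigen processing genes apart. A match is a description of the letters, not evidence of binding. Shown here are 3 antiviral genes with an ISRE core and 2 antigen processing genes without one, with the ISRE or GAS core in capitals. Ifit1 (chr19:34640639-34640938, plus strand) holds 2 ISRE cores, starting 104 and 85 bases before the gene's start. Ifit3 (chr19:34583279-34583578, plus strand) holds 2, at 156 and 122 bases before it, and Rsad2 (chr12:26456403-26456702, minus strand) holds 1, at 120 bases. Psmb8 (chr17:34197945-34198244, plus strand) holds a GAS core at 97 bases before its start, and Tap1 (chr17:34187306-34187605, plus strand) holds neither core.
Ifit1: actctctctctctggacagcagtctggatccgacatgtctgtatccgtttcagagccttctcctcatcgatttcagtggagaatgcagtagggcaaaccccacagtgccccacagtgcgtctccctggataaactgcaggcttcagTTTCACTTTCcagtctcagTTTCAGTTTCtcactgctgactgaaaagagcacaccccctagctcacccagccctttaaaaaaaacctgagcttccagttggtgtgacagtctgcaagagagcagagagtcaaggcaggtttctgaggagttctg
Ifit3: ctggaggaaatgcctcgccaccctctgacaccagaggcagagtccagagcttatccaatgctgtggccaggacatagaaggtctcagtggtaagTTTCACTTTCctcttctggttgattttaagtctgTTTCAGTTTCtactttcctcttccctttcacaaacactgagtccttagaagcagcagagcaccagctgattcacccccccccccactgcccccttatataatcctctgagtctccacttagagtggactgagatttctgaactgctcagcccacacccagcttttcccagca
Rsad2: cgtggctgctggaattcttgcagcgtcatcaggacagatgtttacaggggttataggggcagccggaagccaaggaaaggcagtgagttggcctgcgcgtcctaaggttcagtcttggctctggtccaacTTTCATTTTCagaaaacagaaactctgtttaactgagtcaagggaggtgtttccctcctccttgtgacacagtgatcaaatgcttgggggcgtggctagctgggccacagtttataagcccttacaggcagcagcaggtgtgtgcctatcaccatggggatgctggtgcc
Psmb8: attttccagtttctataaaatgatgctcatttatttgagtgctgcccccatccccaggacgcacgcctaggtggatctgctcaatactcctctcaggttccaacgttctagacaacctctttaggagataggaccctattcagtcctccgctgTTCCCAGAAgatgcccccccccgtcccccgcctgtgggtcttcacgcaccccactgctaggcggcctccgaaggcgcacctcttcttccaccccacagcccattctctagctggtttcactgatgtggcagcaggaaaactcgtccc
Tap1: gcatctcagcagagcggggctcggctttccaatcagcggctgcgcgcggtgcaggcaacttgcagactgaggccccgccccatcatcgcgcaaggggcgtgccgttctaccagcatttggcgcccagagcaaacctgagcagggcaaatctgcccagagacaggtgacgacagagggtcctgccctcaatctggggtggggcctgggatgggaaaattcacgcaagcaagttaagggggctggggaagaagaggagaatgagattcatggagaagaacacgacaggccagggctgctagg
Tap1 and Psmb9 are read in opposite directions from starts 226 bases apart, so their windows share 275 bases. Psmb9, Tap1, Psmb8 and Tap2 follow each other on chromosome 17 with no other protein-coding gene between them in the RefSeq table.

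Array medians lay between 4.82 and 5.0 on the deposited log2 scale. Gata4 itself was checked as the targeted gene. It had levels of 9.72, 9.88 and 9.93 on the arrays labelled cKO, against 9.68, 9.45 and 9.47 in wild-type jejunum (difference 0.31 ± 0.185 SE, adjusted p = 0.322). The Gata4 transcript was therefore not lower on the cKO-labelled arrays. Which part of the gene was deleted and where the probes lie are not given in the sources used here, so this level does not check the cKO label. In the ileum Gata4 had 8.02, 8.43 and 8.17 on the cKI arrays, against 6.71, 7.22 and 6.53 on the control arrays (1.38 ± 0.185, adjusted p = 0.00453). Control ileum was itself higher than wild-type ileum, where Gata4 had 5.99, 5.43 and 5.39 (1.22 ± 0.185, adjusted p = 0.000284). All 8 epithelial markers were above the signal filter in every group, with mean levels from 10.98 to 11.57 over the arrays. Of 12 T and NK cell markers 8 were tested, while Cd3d, Cd8b1, Cd4 and Klrd1 were below the filter in every group. Of 12 myeloid and dendritic markers 5 were tested, and Siglech, Flt3, Itgax, Adgre1, Aif1, S100a8 and S100a9 were below it in every group. Mean levels of a marker list are over all its markers with a row, including those not tested. Calls and median differences of a list cover its tested markers only. In such bulk samples fewer cells of a type and less RNA per cell cannot be told apart.

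Wild-type jejunum was the group in which these genes stood highest. Its mean was the highest of the 5 groups for 25 of the 32 genes, compared with 22.5% of all genes tested. Control ileum was highest for the other 7, compared with 19.5% of all genes. Mx2 passed the signal filter only through wild-type jejunum and Gbp3 only through control ileum, so the filter fixed their highest group. The lowest mean was in wild-type ileum for 16 genes, in cKI ileum for 8, in cKO-labelled jejunum for 7 and in control ileum for 1. In the same order the lowest mean of all genes was there for 22.1%, 14.6%, 21.9% and 16.4%. The cKO-labelled count is thus near its share of all genes. The 28 genes outside antigen processing and the 4 antigen processing genes were ordered differently over the groups. For the 28 genes, the median level relative to each gene's mean over all arrays was 0.28, -0.05 and 0.33 on the cKO-labelled jejunal arrays and 0.66, 0.35 and 1.04 in wild-type jejunum. The same median was -0.35, -0.27 and -0.75 in cKI ileum, 0.01, 0.87 and -0.35 in control ileum, and -0.41, -0.82 and -0.66 in wild-type ileum. Jejunal arrays of either label thus stood above the wild-type ileal ones, and the 3 control arrays lay further apart than those of any other group. For the 4 antigen processing genes the median was -0.14, -0.75 and -0.18 in cKO-labelled jejunum, against 0.71, 0.64 and 0.60 in wild-type jejunum. It was -0.41, -0.23 and -0.14 in cKI ileum, 0.01, -0.00 and -0.14 in control ileum, and -0.01, 0.01 and -0.07 in wild-type ileum. By this median the wild-type jejunal arrays were above all others, and the cKO-labelled arrays were among the ileal values or below them.

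**Figure D1:**
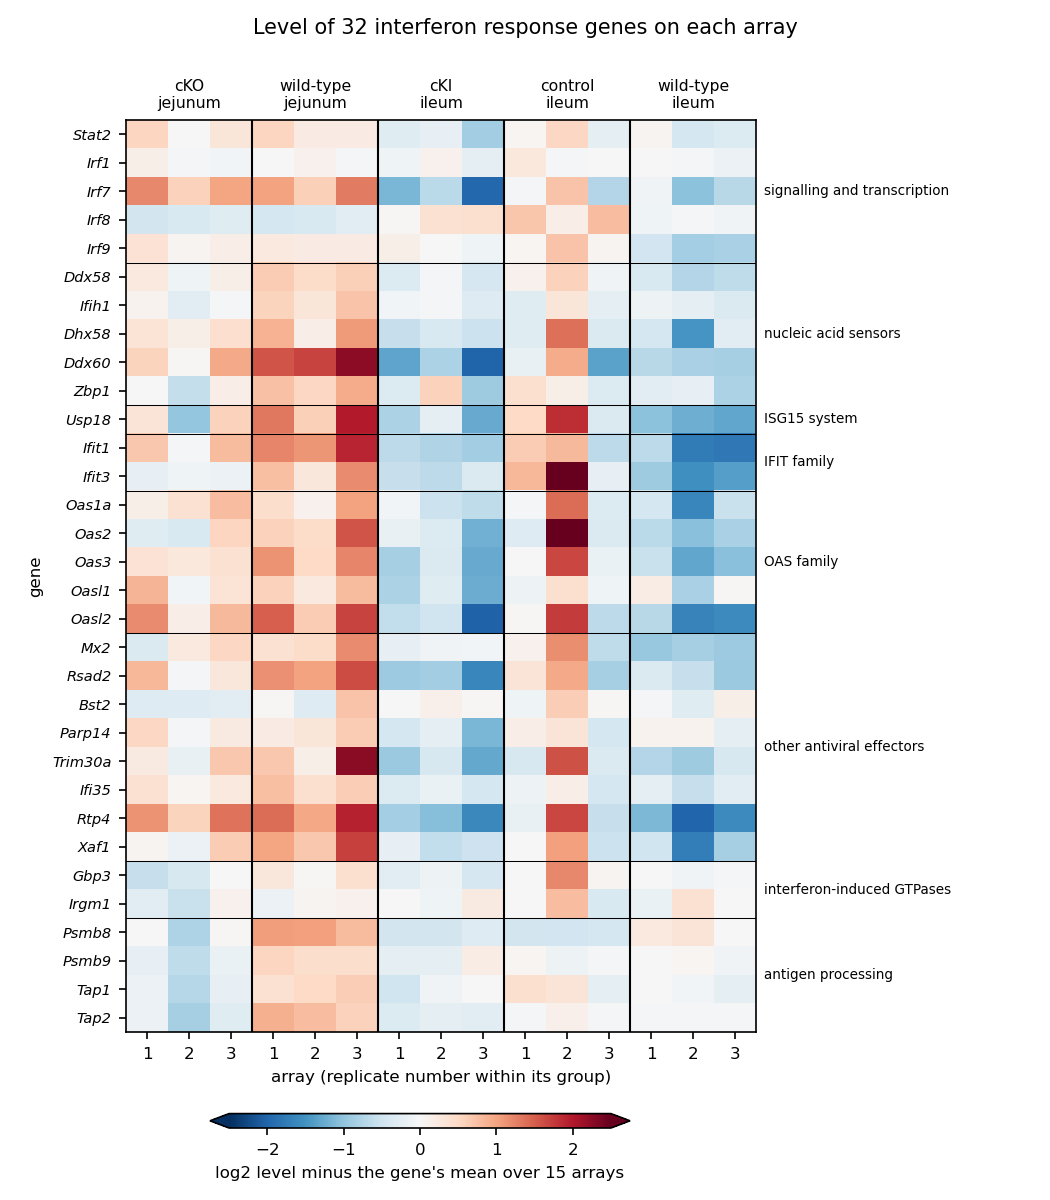
Log2 level of each of the 32 tested interferon response genes on each of the 15 arrays, as the difference from that gene's mean over all arrays (colour, red above and blue below). Rows are ordered by role and columns by group. Wild-type jejunum had the highest mean for 25 genes, and control ileum replicate 2 stands out from the other 2 control arrays.

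**Figure D2:**
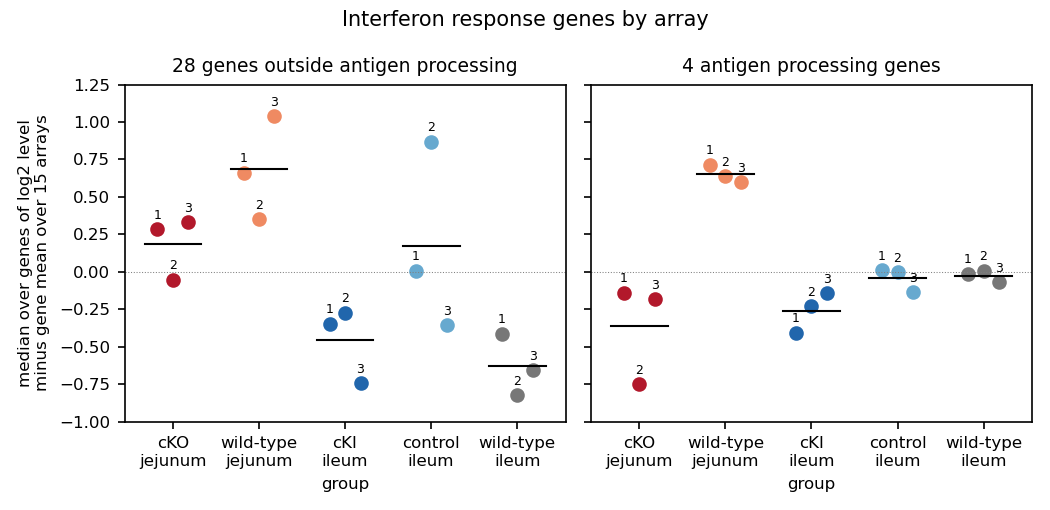
Median over genes of the log2 level relative to each gene's mean, for each array (points, numbered by replicate) with the mean of each group (bars), for 28 genes outside antigen processing (left) and 4 antigen processing genes (right). Wild-type jejunal arrays lie between 0.60 and 0.71 for antigen processing, and no other array exceeds 0.01.

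The comparison of wild-type jejunum with wild-type ileum asks how the genes differ along the normal intestine. A difference was called when its Benjamini-Hochberg adjusted p over all 11784 genes was below 0.05 in limma. Of the 32 genes, 24 were called higher in jejunum and none lower, where 13.4% of all genes were called higher and 7.91% lower. At an unadjusted p below 0.05, Stat2 and Oasl1 joined the higher genes and none was lower. The median log2 difference of the 32 genes was 1.15, against 0.00 over all genes. The 3 jejunal arrays were all above the 3 ileal arrays for 28 genes (22.2% of all genes), and all below them for 1 gene, Irf8 (18% of all genes).

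All 5 sensors of foreign nucleic acid were called higher in jejunum. Ddx60, a helicase that aids RNA sensing, had 8.62, 8.72 and 9.27 in wild-type jejunum, against 6.35, 6.23 and 6.21 in wild-type ileum. The groups were far apart and the difference was 2.61 ± 0.432 (adjusted p = 0.000432, 6.1-fold). Ddx58, which encodes the RNA sensor RIG-I, had 8.65, 8.47 and 8.60 in wild-type jejunum, against 7.63, 7.27 and 7.38 in wild-type ileum. The 2 ranges did not overlap and the difference was 1.14 ± 0.164 (adjusted p = 0.000125, 2.21-fold). Ifih1, the RNA sensor MDA5, had 9.0, 8.75 and 9.16 in wild-type jejunum, against 8.32, 8.21 and 8.08 in wild-type ileum (0.77 ± 0.161, adjusted p = 0.00274, 1.7-fold). Dhx58, the related helicase LGP2, and Zbp1, a sensor of Z-form nucleic acid, were called higher as well. Of the signalling genes, Irf9, the DNA-binding partner of STAT2, had 7.34, 7.29 and 7.29 in wild-type jejunum, against 6.61, 6.24 and 6.29 in wild-type ileum (0.93 ± 0.163, adjusted p = 0.000689). Irf7, which drives type I interferon genes, had 9.48, 9.07 and 9.78 in wild-type jejunum, against 8.40, 7.46 and 7.80 in wild-type ileum (1.56 ± 0.366, adjusted p = 0.00626). Both genes were higher on every jejunal array. Stat2, Irf1 and Irf8 were not called.

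The effector families followed. Ifit1, which binds viral RNA that lacks host cap marks, had 8.45, 8.33 and 9.14 in wild-type jejunum, against 6.57, 5.49 and 5.43 in wild-type ileum (2.81 ± 0.374, adjusted p = 6.47e-05, 7.01-fold). Its neighbour in the family, Ifit3, had 6.86, 6.40 and 7.30 in wild-type jejunum, against 5.23, 4.60 and 4.75 in wild-type ileum (1.99 ± 0.533, adjusted p = 0.0142). Both IFIT genes were above the ileal range on all jejunal arrays. Of 5 OAS genes, which make or relate to enzymes of the RNase L pathway, 4 were called higher. Oas3 had 7.06, 6.43 and 7.16 in wild-type jejunum, against 5.38, 4.63 and 4.89 in wild-type ileum (1.92 ± 0.38, adjusted p = 0.00181, 3.78-fold). Oasl2, an OAS-like protein, had 9.60, 8.73 and 9.79 in wild-type jejunum, against 7.41, 6.44 and 6.5 in wild-type ileum (2.59 ± 0.54, adjusted p = 0.00265). Neither gene's arrays overlapped between the groups. Oas1a differed by 1.39 ± 0.401 (adjusted p = 0.0216) and Oas2 by 1.71 ± 0.581 (adjusted p = 0.0487), while Oasl1 was not called. Usp18, the protease that removes ISG15 and restrains the type I receptor, had 7.59, 6.86 and 8.27 in wild-type jejunum, against 5.26, 5.06 and 4.98 in wild-type ileum (2.47 ± 0.501, adjusted p = 0.00215, 5.55-fold).

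Of the 8 other antiviral effectors 6 were called higher. Rtp4, a chaperone-like protein induced by type I interferon, had 7.67, 7.25 and 8.20 in wild-type jejunum, against 5.15, 4.28 and 4.67 in wild-type ileum. The difference was the widest of the 32 genes in this comparison, 3.00 ± 0.452 (adjusted p = 0.000192), but no fold is given because the ileal mean was below the signal filter. Xaf1, a pro-apoptotic protein, differed by 2.14 ± 0.38 (adjusted p = 0.000773) and Ifi35 by 0.95 ± 0.157 (adjusted p = 0.000431). Rsad2, the antiviral enzyme viperin, had 7.19, 7.06 and 7.69 in wild-type jejunum, against 5.69, 5.49 and 5.13 in wild-type ileum (1.88 ± 0.365, adjusted p = 0.00157, 3.67-fold). Mx2 and Trim30a were also called, and Bst2 (tetherin) and Parp14 were not. Mx2 passed the signal filter only through its wild-type jejunal mean (5.35), a group of this comparison. Of the interferon-induced GTPases, which attack vacuoles that hold pathogens, neither was called, and Gbp3 differed by 0.29 ± 0.245 (adjusted p = 0.465). Both Gbp3 means were below the signal filter here (4.74 in wild-type jejunum, 4.45 in wild-type ileum), which it passed only through control ileum (4.92).

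The 4 antigen processing genes were all called higher in jejunum, by less than most antiviral genes, with a median difference of 0.69 against 1.41 for the other 28. Psmb8 and Psmb9 encode immunoproteasome subunits that cut proteins into peptides, and Tap1 and Tap2 form the transporter that carries these peptides to MHC class I. Tap2 had 7.89, 7.79 and 7.59 in wild-type jejunum, against 6.96, 6.97 and 6.95 in wild-type ileum (0.79 ± 0.145, adjusted p = 0.00101, 1.73-fold). Psmb8 had 9.88, 9.86 and 9.62 in wild-type jejunum, against 9.07, 9.16 and 8.82 in wild-type ileum (0.77 ± 0.172, adjusted p = 0.00443, 1.71-fold). Both were higher on all 3 jejunal arrays with narrow ranges in each group. Psmb9 differed by 0.49 ± 0.138 (adjusted p = 0.0191) and Tap1 by 0.61 ± 0.187 (adjusted p = 0.0304). Stromal and endothelial markers moved in the other direction, with 7 of 8 tested markers called lower in jejunum. Over all 13 with a row, tested or not, mean levels were 4.26 to 4.51 in wild-type jejunum, against 4.90 to 5.23 in wild-type ileum. None of the 8 tested T and NK cell markers was called. Over all 12 with a row, mean levels were 5.54 to 6.16 in wild-type jejunum, against 5.09 to 5.86 in wild-type ileum. B and plasma cell markers had 2 of 7 called lower in jejunum, and myeloid and dendritic markers 2 of 5. The part of these cells in the result was not tested. With replicate numbers as a block within each set of mice, 25 genes were called, beside 19.6% of all genes, and 23 of them were among the 24. Tap1 lost its call (adjusted p = 0.0661), and Stat2 (adjusted p = 0.0186) and Oasl1 (adjusted p = 0.0323) gained one. With a block shared by all arrays Oas2 lost its call instead. Ifit3 lost its call without wild-type jejunum replicate 3 (adjusted p = 0.0556) or without wild-type ileum replicate 2 (adjusted p = 0.0522). Psmb9 lost it without wild-type jejunum replicate 1 (adjusted p = 0.0717) or wild-type ileum replicate 3 (adjusted p = 0.0685), and after quantile normalization (adjusted p = 0.0552), where Tap1 was not called either. Oas1a lost it without wild-type jejunum replicate 1 or 3 or wild-type ileum replicate 2 (adjusted p = 0.0506, 0.0898 and 0.11). Oas2 lost its call whichever array of the 2 groups was left out, and without a filter on low values. Tap1 lost its call when any array but wild-type jejunum replicate 1 was left out. The calls of Dhx58, Zbp1 and Trim30a were each lost in some of these runs, the one without wild-type jejunum replicate 3 among them. With 1 array left out, the count over the 32 genes ran from 17 to 22. Of all genes, 15.4% to 20.1% were called in those runs.

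**Figure D3:**
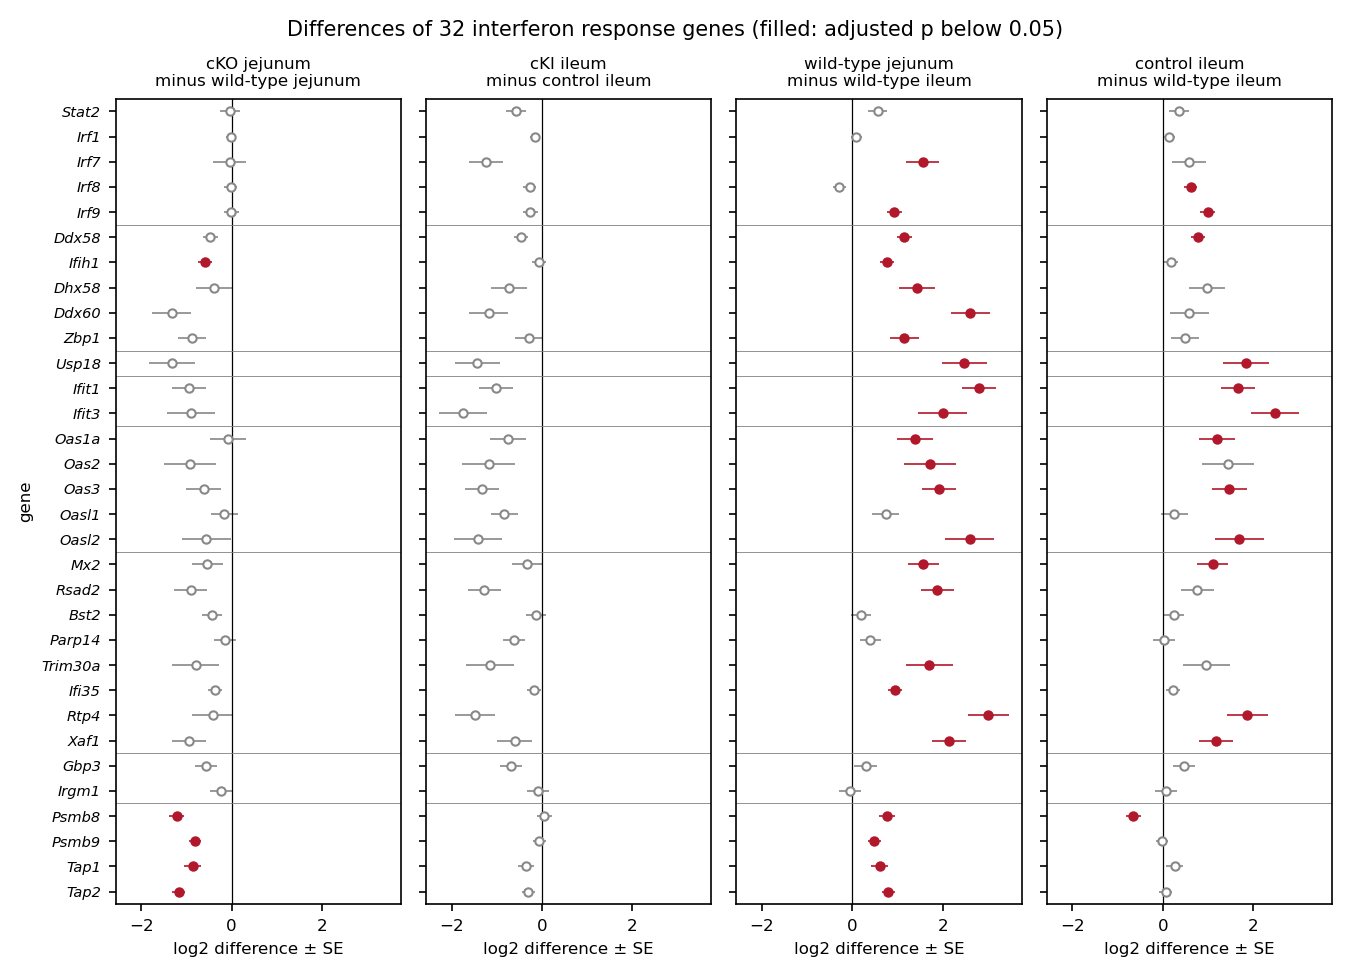
Log2 difference ± SE of each of the 32 tested genes in 4 comparisons, each panel titled with its subtraction; filled points have a limma adjusted p below 0.05, and horizontal lines separate the roles. Antigen processing genes are 4 of the 5 filled points for cKO-labelled against wild-type jejunum, and 24 genes are filled for wild-type jejunum against ileum.

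The comparison of the cKO-labelled jejunum with wild-type jejunum asks what differs when Gata4 is to be removed from its normal region. It uses the same wild-type jejunal arrays as the comparison above, so the 2 sets of differences are not independent. Antigen processing genes were the group called lower. All 4 of 4 were called lower, with a median difference of -1.01, and of the other 28 genes only Ifih1 was. Of all genes tested 12.8% were called, 7.65% lower and 5.17% higher, and none of the 32 genes was called higher. All 32 differences were negative, with a median of -0.56 against -0.03 over all genes, of which 54.8% were negative. Most of the 32 genes moved together from array to array, as described below, so these signs are not independent of each other. The cKO-labelled arrays were all below the wild-type arrays for 16 of the 32 genes (15.8% of all genes).

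Psmb8 had 8.81, 8.05 and 8.85 in cKO-labelled jejunum, against 9.88, 9.86 and 9.62 in wild-type jejunum. The difference was -1.21 ± 0.172 (adjusted p = 0.000257), 2.32-fold lower. Tap2, a chain of the peptide transporter, had 6.87, 6.17 and 6.71 in cKO-labelled jejunum, against 7.89, 7.79 and 7.59 in wild-type jejunum. The difference was -1.17 ± 0.145 (adjusted p = 8.1e-05), 2.25-fold lower. Tap1, the other chain, had 7.97, 7.39 and 7.90 in cKO-labelled jejunum, against 8.49, 8.61 and 8.73 in wild-type jejunum (-0.86 ± 0.187, adjusted p = 0.00668, 1.81-fold lower). Psmb9 had 7.82, 7.37 and 7.85 in cKO-labelled jejunum, against 8.56, 8.46 and 8.45 in wild-type jejunum (-0.81 ± 0.138, adjusted p = 0.00114, 1.75-fold lower). For all 4 genes every cKO-labelled array was below every wild-type array, and cKO replicate 2 was the lowest. The 4 calls held under every alternative run, including without that array.

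The antiviral genes were lower on average but mostly not called. Ifih1 had 8.54, 8.19 and 8.41 in cKO-labelled jejunum, against 9.0, 8.75 and 9.16 in wild-type jejunum (-0.59 ± 0.161, adjusted p = 0.0247, 1.51-fold lower). The groups did not overlap, but the call was lost without cKO replicate 2 (adjusted p = 0.104), wild-type jejunum replicate 1 (0.0793) or wild-type jejunum replicate 3 (0.092), and after quantile normalization (0.0672). Ddx60 had 7.60, 7.06 and 7.99 in cKO-labelled jejunum, against 8.62, 8.72 and 9.27 in wild-type jejunum (-1.32 ± 0.432, adjusted p = 0.059). Usp18 had 6.60, 5.31 and 6.85 in cKO-labelled jejunum, against 7.59, 6.86 and 8.27 in wild-type jejunum (-1.32 ± 0.501, adjusted p = 0.105). For both genes the ranges did not overlap, although the spread kept the adjusted p above the threshold. Ifit1 differed by -0.94 ± 0.374 (adjusted p = 0.123), Ifit3 by -0.89 ± 0.533 (0.325), Oas3 by -0.62 ± 0.38 (0.34), Rsad2 by -0.90 ± 0.365 (0.127) and Gbp3 by -0.56 ± 0.245 (0.162). Both Gbp3 means were below the signal filter here (4.18 in cKO-labelled and 4.74 in wild-type jejunum). Signalling genes lay close to 0 with overlapping arrays. Irf7 had 9.68, 9.07 and 9.46 in cKO-labelled jejunum, against 9.48, 9.07 and 9.78 in wild-type jejunum (-0.04 ± 0.366, adjusted p = 0.96). Stat2 differed by -0.04 ± 0.219 (adjusted p = 0.942), and Irf1, Irf8 and Irf9 lay nearer to 0 still. At an unadjusted p below 0.05, 14 of the 32 genes were lower, against 25.5% of all genes in either direction. Fitted to the 6 jejunal arrays alone, 8 genes were called lower, the 5 above with Ddx60, Ifit3 and Zbp1. That setting called 8.31% of all genes in either direction. No T or NK, B or plasma cell marker was called. The 12 T and NK markers with a row had mean levels of 5.53 to 6.15 in cKO-labelled jejunum, against 5.54 to 6.16 in wild-type jejunum. Of the other lists, 1 of 8 stromal and endothelial markers (Pdgfrb), 1 of 5 myeloid and dendritic markers (Cd14) and 1 of 8 epithelial markers (Krt8) were called higher. The 8 tested stromal markers had a median difference of 0.40. Over all 13 with a row, mean levels were 4.52 to 4.75 in cKO-labelled jejunum, against 4.26 to 4.51 in wild-type jejunum. The part of these cells in the result was not tested.

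**Figure D4:**
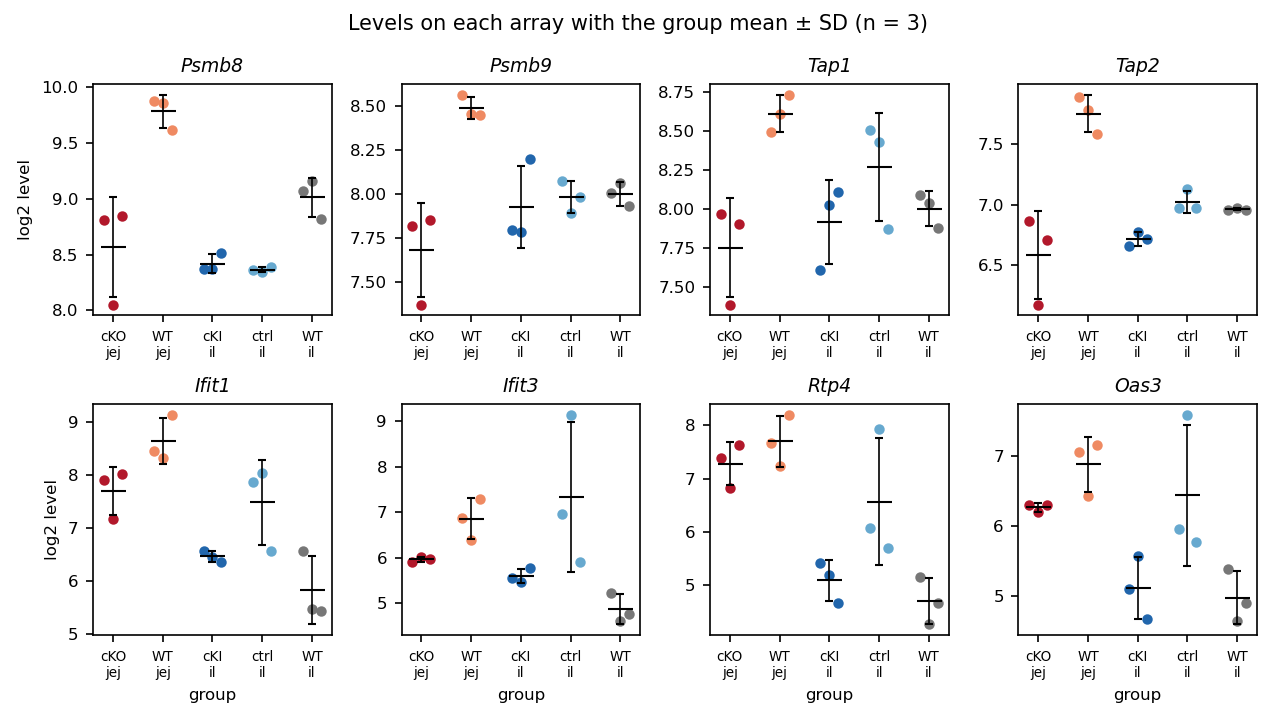
Log2 level on each array (points) with the group mean ± SD (bars, n = 3) for the 4 antigen processing genes (top) and 4 antiviral genes (bottom). From left to right are cKO-labelled jejunum (cKO jej), wild-type jejunum (WT jej), cKI ileum (cKI il), control ileum (ctrl il) and wild-type ileum (WT il), and each panel has its own axis. In the top row every cKO-labelled array is below every wild-type jejunal array, and in the bottom row control replicate 2 is the highest control array.

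The cKO-labelled jejunum was also set against wild-type ileum, to ask how far these arrays stood from the distal region. The wild-type ileal arrays are those of the regional comparison. Of the 32 genes 7 were called higher and none lower, where 5.1% of all genes were called, 3.26% higher and 1.84% lower. The median difference was 0.73, against -0.01 over all genes. All cKO-labelled arrays were higher for 18 of the 32 genes (12% of all genes) and lower for 3 (10% of all genes). All 4 antigen processing genes had negative differences, with a median of -0.35 and no call. The 7 genes called higher were Rtp4, Irf9, Ifit1, Irf7, Ddx58, Oasl2 and Ifi35. Rtp4 had 7.40, 6.83 and 7.63 in cKO-labelled jejunum, against 5.15, 4.28 and 4.67 in wild-type ileum (2.58 ± 0.452, adjusted p = 0.0042). Irf9 had 7.46, 7.17 and 7.27 in cKO-labelled jejunum, against 6.61, 6.24 and 6.29 in wild-type ileum (0.92 ± 0.163, adjusted p = 0.0045). These 2 calls held under every alternative run. Ifit1 had 7.91, 7.18 and 8.02 in cKO-labelled jejunum, against 6.57, 5.49 and 5.43 in wild-type ileum (1.87 ± 0.374, adjusted p = 0.0094, 3.66-fold), and lost its call without wild-type ileum replicate 2 (adjusted p = 0.0526). Irf7 differed by 1.52 ± 0.366 (adjusted p = 0.0272), Ddx58 by 0.68 ± 0.164 (0.0278), Oasl2 by 2.03 ± 0.54 (0.0422) and Ifi35 by 0.59 ± 0.157 (0.0432). Each of these 4 lost its call without cKO replicate 1 or 3 or wild-type ileum replicate 2 or 3, with an adjusted p of up to 0.131, 0.126, 0.157 and 0.189 over all alternatives. The count fell to 3 without cKO replicate 1, cKO replicate 3 or wild-type ileum replicate 3, and to 2 without wild-type ileum replicate 2. In the same order 3.66%, 3.87%, 3.16% and 2.37% of all genes were called. Usp18 differed by 1.16 ± 0.501 (adjusted p = 0.217), Tap2 by -0.38 ± 0.145 (0.158) and Irgm1, a GTPase, by -0.31 ± 0.243 (0.533). No T or NK and no B or plasma cell marker was called, with median differences of 0.45 and -0.94. Stromal and endothelial markers had 2 of 8 called lower (Col1a1 and Col3a1, median of the list -0.66), and myeloid and dendritic markers 1 of 5 (Itgam). The part of these cells in the result was not tested.

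The comparison of control ileum with wild-type ileum shows how far the ileal arrays labelled control and wild-type differed. It was the comparison with the most calls over all genes, 19.3% higher and 8.61% lower. Of the 32 genes, 12 were called higher in control ileum, and Psmb8 was called lower. The median difference was 0.60, against 0.08 over all genes. All control arrays were above all wild-type arrays for 13 of the 32 genes, against 29.4% of all genes, and below them for 1, against 15.4%. Gbp3, among the 13, passed the signal filter only through control ileum (mean 4.92), a group of this comparison. It was not called (0.47, adjusted p = 0.169). Irf9 had 7.14, 7.81 and 7.16 in control ileum, against 6.61, 6.24 and 6.29 in wild-type ileum (0.99 ± 0.163, adjusted p = 0.000513). Irf8, a factor of immune cells that interferon gamma induces, had 9.26, 8.73 and 9.35 in control ileum, against 8.46, 8.54 and 8.48 in wild-type ileum (0.62 ± 0.146, adjusted p = 0.00606). In both genes all control arrays were higher. Ifit3 had 6.96, 9.14 and 5.91 in control ileum, against 5.23, 4.60 and 4.75 in wild-type ileum (2.48 ± 0.533, adjusted p = 0.00348). Usp18 had 6.78, 8.12 and 5.92 in control ileum, against 5.26, 5.06 and 4.98 in wild-type ileum (1.84 ± 0.501, adjusted p = 0.0137). The control arrays were above the wild-type arrays for both genes but differed widely among themselves, with replicate 2 the highest. Ifit1 differed by 1.66 ± 0.374 (adjusted p = 0.00459), Ddx58 by 0.78 ± 0.164 (0.00303), Oas3 by 1.47 ± 0.38 (0.0102) and Rtp4 by 1.87 ± 0.452 (0.007). The other calls were Oasl2 (1.69 ± 0.54, adjusted p = 0.0303), Oas1a (1.20 ± 0.401, 0.0365), Mx2 (1.11 ± 0.344, 0.0264) and Xaf1 (1.17 ± 0.38, 0.0328). Each of these 4 lost its call without control replicate 2 or wild-type ileum replicate 2, among other settings, with an adjusted p of up to 0.144, 0.17, 0.118 and 0.156. For Mx2 both means compared here were below the signal filter (4.89 in control ileum, 3.78 in wild-type ileum). It passed the filter only through wild-type jejunum (5.35).

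Psmb8 went the other way, with 8.36, 8.34 and 8.39 in control ileum, against 9.07, 9.16 and 8.82 in wild-type ileum (-0.65 ± 0.172, adjusted p = 0.0118, 1.57-fold lower). The arrays did not overlap, and the call was lost without wild-type ileum replicate 2 (adjusted p = 0.0503). The other 3 antigen processing genes were not called. Without control replicate 2, 7 genes were called higher, and Usp18 (adjusted p = 0.0655) was no longer among them. Without wild-type ileum replicate 2 the count was 8. In the same order 22.1% and 20.5% of all genes were called in either direction. T and NK cell markers were higher too, with 3 of 8 tested (Cd3e, Nkg7 and Cd7) called. Over all 12 with a row, mean levels were 5.83 to 6.60 in control ileum, against 5.09 to 5.86 in wild-type ileum. B and plasma cell markers had 1 of 7 called higher (Jchain), stromal and endothelial markers 2 of 8 higher and 1 lower, and myeloid and dendritic markers 1 of 5 higher and 1 lower. The part of these cells in the result was not tested.

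The comparison of cKI ileum with control ileum asks what differs when Gata4 is expressed in the ileum. None of the 32 genes was called in limma, where 0.764% of all genes were called, 0.424% lower and 0.339% higher. Of the 32 differences 31 were negative, against 43.3% of all genes, with a median of -0.61 against 0.03. Most of these genes rose and fell together from array to array, so their signs are not independent of each other. At an unadjusted p below 0.05, 15 of the 32 genes were lower, compared with 15.3% of all genes in either direction. With replicate numbers as a block within each set of mice, Irf7 and Oas3 were called lower (adjusted p = 0.0155 each) among 0.815% of all genes called. This block was added after seeing the data. The correlation of same-numbered arrays passed the limit used for pairing. That does not establish pairing, as cKO-labelled jejunum and wild-type ileum, from different mice, reached 0.474. Array weights gave 1 call, Irf8, where that setting called 6.5% of all genes, and the planned block over all arrays gave none.

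Irf7 had 7.35, 7.82 and 6.52 in cKI ileum, against 8.45, 9.20 and 7.75 in control ileum (-1.24 ± 0.366, adjusted p = 0.142). Within each replicate number the cKI array was lower, while the 2 ranges overlapped between cKI replicate 2 and control replicate 3. Oas3 had 5.09, 5.56 and 4.67 in cKI ileum, against 5.95, 7.59 and 5.77 in control ileum (-1.33 ± 0.38, adjusted p = 0.131). All cKI arrays were below all control arrays. Rsad2 had 5.15, 5.18 and 4.43 in cKI ileum, against 6.37, 7.01 and 5.22 in control ileum (-1.28 ± 0.365, adjusted p = 0.129). Ifit3 had 5.55, 5.46 and 5.76 in cKI ileum, against 6.96, 9.14 and 5.91 in control ileum (-1.75 ± 0.533, adjusted p = 0.149). Rtp4 had 5.41, 5.20 and 4.66 in cKI ileum, against 6.08, 7.94 and 5.70 in control ileum (-1.48 ± 0.452, adjusted p = 0.149). For these 3 genes the groups did not overlap, and control replicate 2 set much of the distance. Such separation, with all cKI arrays lower, was found in 9 of the 32 genes and in 7.73% of all genes. Usp18 differed by -1.43 ± 0.501 (adjusted p = 0.211), Ddx58 by -0.46 ± 0.164 (0.216) and Gbp3 by -0.69 ± 0.245 (0.217). Gbp3 passed the signal filter only through control ileum (mean 4.92), a group of this comparison. Antigen processing genes had a median of -0.18, with Tap2 at -0.30 ± 0.145 (adjusted p = 0.334) and Psmb8 at 0.05 ± 0.172 (0.915). Leaving out control replicate 2 moved the median of the 32 genes to -0.27. Leaving out control replicate 3 gave 2 genes called lower, Ifit3 (-2.46, adjusted p = 0.032) and Rsad2 (-1.77, adjusted p = 0.0224), where 0.331% of all genes were called. The 8 tested T and NK cell markers had a median difference of -1.18 with none called. Over all 12 with a row, mean levels were 4.61 to 5.75 in cKI ileum, against 5.83 to 6.60 in control ileum. B and plasma cell markers had 1 of 7 called lower (Jchain, median of the list -0.77), with mean levels of 4.72 to 4.94 in cKI ileum, against 4.74 to 6.55 in control ileum. Stromal and endothelial markers had 1 of 8 tested called lower (Pdgfrb, median of the tested markers -0.81). Over all 13 with a row, mean levels were 4.75 to 4.98 in cKI ileum, against 5.01 to 5.82 in control ileum. The part of these cells in the result was not tested.

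The spread between arrays of a group was itself wide for these genes. In control ileum the median SD over the 32 genes was 0.630, against 0.139 over all genes, and 17 of the 32 had an SD above 0.5, against 3.15% of all genes. Ifit3 had the highest of these SDs, 1.65. Of the 28 genes outside antigen processing, control replicate 2 was the highest control array for 25 (34.4% of all genes) and control replicate 3 the lowest for 20 (26.8% of all genes). In the antigen processing genes control replicate 2 was the highest in 1 of 4. Wild-type jejunum had a median SD of 0.304, against 0.129 over all genes. There, replicate 3 was the highest for 23 of the 28 genes (23.3% of all genes) and the lowest for 3 of the 4 antigen processing genes. In cKO-labelled jejunum replicate 2 was the lowest for 21 of the 28 genes and for 4 of 4 antigen processing genes, compared with 33.3% of all genes. In cKI ileum replicate 3 was the lowest for 21 of the 28 genes (28.4% of all genes). In wild-type ileum replicate 1 was the highest for 20 of the 28 (33% of all genes). The median SD was 0.319 in cKO-labelled jejunum, 0.223 in cKI ileum and 0.214 in wild-type ileum, against 0.193, 0.142 and 0.134 over all genes. The same few arrays therefore stood high or low for most of the 28 genes at once. Cell type markers moved with some of these arrays and against others. Control replicate 2 had the highest mean level of the control arrays for T and NK (6.60), B and plasma (6.55), stromal (5.82) and myeloid (5.21) markers. It had the lowest for epithelial markers (11.28). Control replicate 1, not replicate 3, was lowest for T and NK (5.83), B and plasma (4.74), stromal (5.01) and myeloid (4.96) markers. In cKI ileum replicate 3 had the lowest mean level for T and NK (4.61), B and plasma (4.72) and epithelial (10.98) markers, and in cKO-labelled jejunum replicate 2 had the lowest for T and NK (5.53) and epithelial (11.21) markers. Their part in the spread was not tested.

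The rest of the interferon pathway was read from lists of its other genes. Of 17 interferon genes listed 14 had a row, 2 were tested, and none was called in any comparison. The 12 receptor and proximal signalling genes tested included Ifnar2, a chain of the type I receptor, which had 5.73, 5.55 and 5.86 in cKO-labelled jejunum, against 7.33, 7.52 and 6.99 in wild-type jejunum (-1.57 ± 0.144, adjusted p = 5.97e-06). In wild-type ileum it had 5.36, 5.61 and 5.61, so that wild-type jejunum was higher by 1.75 ± 0.144 (adjusted p = 6.96e-07, 3.37-fold). The wild-type jejunal arrays were above all others for this gene. Il10rb, the chain shared by the interleukin 10 and lambda interferon receptors, had 9.27, 8.99 and 9.24 in cKO-labelled jejunum, against 9.93, 9.95 and 9.64 in wild-type jejunum (-0.67 ± 0.129, adjusted p = 0.00271). It was 0.80 ± 0.129 higher in wild-type jejunum than in wild-type ileum (adjusted p = 0.000338). These were the 2 genes of the list called in cKO-labelled against wild-type jejunum, both lower, beside 7.65% of all genes called lower. In wild-type jejunum against ileum 4 were called, all higher, beside 13.4% of all genes called higher. Ifnar2, Il10rb, Ifnar1 and Ifngr2 follow each other on chromosome 16 in the RefSeq table. Ifnar1, the other type I receptor chain, differed by -0.29 ± 0.109 (adjusted p = 0.107) between cKO-labelled and wild-type jejunum and by 0.32 ± 0.109 (0.053) between wild-type jejunum and ileum. Ifngr1, of the gamma receptor, and Ifnlr1, of the lambda receptor, were not called in any comparison. In control against wild-type ileum, Ifnar2 (0.69 ± 0.144, adjusted p = 0.00277) and Ifngr2 (0.42 ± 0.125, adjusted p = 0.0222) were called higher and Il10rb lower (-0.51, adjusted p = 0.00937). These counts, 2 of 12 higher and 1 of 12 lower, are near the 19.3% and 8.61% of all genes called. Ifngr2 lost its call without control replicate 1 or 2 or wild-type ileum replicate 2, with an adjusted p of up to 0.109.

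Adaptors of nucleic acid sensing did not share 1 direction. Mavs, the adaptor of RIG-I and MDA5, had 9.67, 9.46 and 9.35 in wild-type jejunum, against 8.67, 8.65 and 8.66 in wild-type ileum (0.84 ± 0.139, adjusted p = 0.00046). Sting1, the adaptor of DNA sensing, had 5.54, 6.02 and 5.81 in wild-type jejunum, against 6.96, 7.61 and 7.32 in wild-type ileum (-1.51 ± 0.308, adjusted p = 0.00231). Neither gene's arrays overlapped between the regions. Of the 12 adaptors tested, 3 were called higher and 2 lower in this comparison, beside 13.4% and 7.91% of all genes. In cKO-labelled jejunum Sting1 had 5.95, 7.09 and 7.59, overlapping the wild-type jejunal arrays by 1 array (1.09 ± 0.308, adjusted p = 0.03), and the call was lost when any array but cKO replicate 1 was left out. Ikbke was also called higher there and Tbk1 lower, both kinases of IRF3 and IRF7. In that comparison 2 of the 12 adaptors were called higher and 1 lower, beside 5.17% and 7.65% of all genes. Ikbke lost its call when any 1 of the 6 arrays was left out, and Tbk1 when any but cKO replicate 1 was, with an adjusted p of up to 0.186 and 0.153.

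Of 38 other interferon-induced genes tested, 17 were called higher and none lower in wild-type jejunum against wild-type ileum, beside 13.4% of all genes called higher. In cKO-labelled against wild-type jejunum 6 were called lower and none higher, beside 7.65% of all genes called lower. Control against wild-type ileum had 11 called higher and 1 lower, beside 19.3% and 8.61% of all genes. The cKO-labelled jejunum against wild-type ileum had 6 called higher and none lower, beside 3.26% of all genes called higher. In cKI against control ileum none was called, beside 0.764% of all genes. Ifi27l2b, of the Ifi27-like family, had 8.53, 7.95 and 8.15 in cKO-labelled jejunum, against 11.8, 11.6 and 12.4 in wild-type jejunum (-3.72 ± 0.314, adjusted p = 2.57e-06, 13.2-fold lower). It had 9.31, 8.69 and 9.70 in wild-type ileum, below all wild-type jejunal arrays (2.70 ± 0.314 higher in wild-type jejunum, adjusted p = 1.77e-05). The cKO-labelled arrays were thus below both wild-type groups for this gene. Of the 7 genes of MHC class I and its regulators tested, 2 were called higher in wild-type jejunum than in wild-type ileum, beside 13.4% of all genes. B2m, the light chain of MHC class I, was among them (0.66 ± 0.123, adjusted p = 0.00116). In control against wild-type ileum 2 were called higher, B2m (1.00 ± 0.123, adjusted p = 5.83e-05) and Psme2, a subunit of the PA28 proteasome activator. Psme1 was lower (-0.50, adjusted p = 0.00137), beside 19.3% and 8.61% of all genes. Against wild-type jejunum, Psme2 alone was called in cKO-labelled jejunum (-0.55 ± 0.1, adjusted p = 0.00186). Against wild-type ileum, B2m was called higher there (0.46, adjusted p = 0.041) and Psme2 lower (-0.37, 0.0488). These 2 calls were lost in 9 and 10 of 14 alternative runs.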

How the data were processed

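RNA of intestinal epithelial cells was hybridised to Affymetrix Mouse Gene 1.0 arrays, 1 per sample, per the labels. The deposited table holds the authors' log2 values for 35556 array rows on 15 arrays; Partek is named in the submitters' processing notes, and its background correction and normalization are not given in the sources used here. Rows were named through the platform annotation, in which 21789 rows have 1 gene symbol, 1621 have several and 12146 are unlisted, and the row with the highest mean stood for each of 19938 genes. A gene was tested if at least 1 group averaged above 4.91, the median of the whole table, which left 11784. limma 3.58.1 in R 4.3.3 was fitted with group means over all 15 arrays (10 residual degrees of freedom), and p-values were adjusted by Benjamini-Hochberg over all genes tested. The fit was tested on simulated data. The number of arrays, 3 per group, limits the precision. A fold is given only where both group means exceeded the filter, and levels of different genes are not compared.

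Per comparison, values are given for called genes, up to 3 per role and direction by smallest p, or the gene with the smallest p in a role with no call; of the pathway lists, up to 2 called genes per list and direction, with Ifnar1, Ifngr1 and Ifnlr1; further genes of the 40 are named to complete a role. The genes, lists and comparisons were chosen with earlier results of these data known. Replicate numbers come from the sample titles. Deviations of same-numbered arrays correlated at 0.334, 0.216 and 0.161 between the wild-type regions and at 0.128, 0.177 and 0.258 between cKI and control ileum, all above the limit of 0.1 used to call arrays paired. The other comparisons had at least 1 correlation below that limit. Among them, cKO-labelled jejunum and wild-type ileum, which come from different mice, had 0.474, 0.257 and 0.058. The first of these exceeded every value above, so passing the limit does not establish that arrays are paired. Alternatives were another filter or none, quantile normalization, median centring, only the 2 groups' arrays, a replicate block, array weights, the mean of a gene's rows and leaving out each array. The block within sets of mice was added after seeing the data.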

Additional observations from a re-analysis of the deposited data

How the results depend on the processing

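The direction of the median difference of the 32 genes held in all 5 comparisons under every alternative run. Leaving out 1 array at a time, the median ran from -0.69 to -0.40 for cKO-labelled against wild-type jejunum, from 0.62 to 0.88 for cKO-labelled jejunum against wild-type ileum, from -0.85 to -0.27 for cKI against control ileum, from 1.04 to 1.24 for wild-type jejunum against ileum and from 0.33 to 0.93 for control against wild-type ileum. In the same order of comparisons, genes called higher ran from 0 to 0, 2 to 7, 0 to 0, 17 to 22 and 7 to 16, and genes called lower from 4 to 5, 0 to 0, 0 to 2, 0 to 0 and 0 to 1. Of all genes, 8.35% to 13%, 2.37% to 5.02%, 0.17% to 1.49%, 15.4% to 20.1% and 20.5% to 24% were called in either direction in those runs. With only the 2 groups' arrays, 8 genes were called lower in cKO-labelled against wild-type jejunum, beside 8.31% of all genes called. Array weights gave 1 gene called lower in cKI against control ileum (median difference -0.33) and 1, Tap2 (adjusted p = 0.042), in cKO-labelled jejunum against wild-type ileum. In the same order 6.5% and 5.17% of all genes were called. The replicate block within sets of mice gave 2 genes called lower in cKI against control ileum and 25 called higher between the wild-type regions, beside 0.815% and 19.6% of all genes called. The replicate block over all arrays gave 23 called higher between the wild-type regions, 5 called lower in cKO-labelled against wild-type jejunum, 6 called higher against wild-type ileum, 11 higher and 1 lower in control against wild-type ileum and 0 in cKI against control ileum. In the same order 20.9%, 12.3%, 4.59%, 27.5% and 0.611% of all genes were called. The causes of these changes were not tested.

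Genes near 0 changed sign without reaching the threshold. After quantile normalization, Stat2 between cKO-labelled and wild-type jejunum was 0.018, Ifnar1 was -0.0427 in cKI against control ileum and -0.00907 in cKO-labelled jejunum against wild-type ileum, and Ifnlr1 in control against wild-type ileum was -0.102. Ifnlr1 was also -0.030 after median centring and -0.0151 with array weights in control against wild-type ileum, and -0.0661 with array weights in cKO-labelled jejunum against wild-type ileum. With 1 array left out, Stat2 between cKO-labelled and wild-type jejunum ran from -0.17 to 0.11, Ifnar1 in cKI against control ileum from -0.0705 to 0.11, Ifngr1 between the wild-type regions from -0.13 to 0.0889, and Ifnlr1 from -0.0945 to 0.0942 in control and from -0.0551 to 0.23 in cKO-labelled jejunum, both against wild-type ileum. The 3 arrays per group and, for genes near the signal filter, low signal limit what can be called.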
